A study of Mus musculus with 8 samples.

Results

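Nd1, Nd2 and Nd3 (mt-Nd1, mt-Nd2 and mt-Nd3) are 3 of the 13 protein-coding genes of mouse mitochondrial DNA. They were followed here as a set of 3 transcripts among the 8688 in the count table. Each of the 13 genes has its own row and is called an mRNA here, although Atp8 with Atp6 and Nd4l with Nd4 share an mRNA. Nd1, Nd2 and Nd3 were taken by identifier, as the mRNAs for subunits of respiratory complex I that are each cut out alone between tRNAs. All 3 had reads in every library. Livers of wildtype C57BL/6N mice aged 12 weeks (12 W) and 65 weeks (65 W) were used to purify mitochondria on a sucrose gradient. Their RNA was sequenced by Nanopore as poly(dT)-primed, PCR-amplified cDNA, in 8 barcoded libraries on 1 flow cell. Each age group had 4 libraries, labelled as biological replicates, and received no other treatment. The 12 W mice were female. The sex of the 65 W mice, and whether each library was from a single animal, is not given in the sources used here. The values are counts of reads per transcript, and the libraries are named here by age and replicate, for example 65W-1.

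Complex I, the NADH:ubiquinone oxidoreductase, passes electrons from NADH to ubiquinone and pumps protons across the inner mitochondrial membrane. Its membrane arm is built around subunits encoded by mitochondrial DNA. ND1 lies where the membrane arm meets the peripheral arm and helps to form the ubiquinone channel, ND3 contributes a loop to the same region, and ND2 resembles the antiporter-like subunits that take part in proton pumping. Mitochondrial DNA is copied into long precursors in which tRNAs stand between most of the mRNAs. Cutting out the tRNAs frees the mRNAs, most of which then receive a poly(A) tail. That tail is what poly(dT) priming detects. Hepatocytes are rich in mitochondria and depend on this respiratory chain.

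The positions and sequences below are those of GENCODE on the mouse genome GRCm38, on the strand that reads as the mRNA. Each of the 3 is a protein-coding gene of a single exon, which the coding sequence with its stop codon fills from end to end. Nd1 (ENSMUST00000082392.1) occupies positions 2751 to 3707 of the mitochondrial chromosome and is 957 nt long. Nd2 (ENSMUST00000082396.1) occupies positions 3914 to 4951 and is 1038 nt long. The intervening 206 nt hold the tRNA genes mt-Ti, mt-Tq and mt-Tm, of which mt-Tq is read from the opposite strand. Nd3 (ENSMUST00000082411.1) lies 4507 nt further on, at positions 9459 to 9806, and is only 348 nt long.

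Each of the 3 mRNAs follows a tRNA without a spacer. The next lines show the last 20 bases of that tRNA and the start of the mRNA at chrM:2731-2770, chrM:3894-3933 and chrM:9439-9478, with the start codon in capitals.
mt-Tl1 to Nd1: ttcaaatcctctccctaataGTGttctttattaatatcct
mt-Tm to Nd2: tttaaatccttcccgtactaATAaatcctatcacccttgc
mt-Tg to Nd3: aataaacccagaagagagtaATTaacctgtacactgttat
None of the 3 began with ATG, whereas 9 of the 10 other mitochondria-encoded mRNAs did. Vertebrate mitochondria are known to start translation at codons other than ATG.

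At the other end, the annotation makes Nd1 and Nd2 overlap the tRNA that follows by 2 bases. The next lines show both overlaps, at chrM:3688-3725 and chrM:4932-4969, with the shared bases in capitals, and the last 20 bases of Nd3 at chrM:9787-9806, with its stop codon in capitals.
Nd1 to mt-Ti: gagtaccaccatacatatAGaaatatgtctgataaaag
Nd2 to mt-Tw: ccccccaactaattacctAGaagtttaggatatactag
Nd3: gattagaatgaacagagTAA
In both overlaps the shared bases are the last 2 of an annotated TAG stop codon. Nd3 ended in a TAA of its own, and a single base separated it from mt-Tr. Where a tRNA takes the end of a stop codon, the poly(A) tail is known to supply the missing bases.

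Poly(dT) can also prime within a transcript, and the 3 mRNAs differed in their internal stretches of A. Nd2 held the longest stretch of all 13 mRNAs, 8 A at positions 4052 to 4059, which is 892 nt before its end, while no other mRNA exceeded 7. The longest stretch of Nd1 had 6 A, 82 nt before its end, and that of Nd3 had 5 A. The stretches of Nd1 and Nd2 are shown with 10 bases on either side, at chrM:3610-3635 and chrM:4042-4069, with the stretch in capitals.
Nd1: atcttctatgAAAAAActttctaccc
Nd2: actaatcaacAAAAAAAAcccacgatca
Where the reads of each mRNA began was not analysed here.

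The libraries differed in depth. Total counts lay between 104554 and 191092 at 12 W and between 12630 and 105252 at 65 W, and the shallowest libraries were 65W-1 (12630) and 65W-3 (22651). Mitochondria-encoded mRNAs took 77.0 to 80.3% of the counts at 12 W and 74.8 to 82.4% at 65 W. All 17 hepatocyte markers on the list used here were detected, and together they took 16671 to 31053 CPM (counts scaled to the same library total) at 12 W and 13678 to 24665 CPM at 65 W. Of 24 markers of red cells, Kupffer and other immune cells, endothelial cells and stellate cells, 3 had no counts (Hba-a1, Ptprc and Pecam1), and no list of these cells exceeded 441 CPM in any library. These are bulk samples of purified mitochondria, in which fewer mitochondria or cells of a type cannot be told apart from less RNA in each. The counts of Nd1, Nd2 and Nd3 were related to the reference counts, the sum over the 12 mitochondrial mRNAs that remain when Cox1 is left out. A level is the number of counts per 1000 reference counts. The study related its counts to the ribosomal RNA Rnr2, for which no row is used here.

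Nd1 was the most abundant of the 3 mRNAs in every library. Libraries 12W-1 to 12W-4 held 12756, 6729, 11483 and 9829 Nd1 counts, and libraries 65W-1 to 65W-4 held 1197, 6059, 1244 and 6262. Its level was 96.2, 88.3, 106.1 and 91.0 at 12 W, compared with 132.0, 91.3, 76.8 and 76.2 at 65 W, in the same order. The 65 W libraries therefore lay on both sides of the 12 W range, with 65W-1 above it and 65W-3 and 65W-4 below it. The means were 95.4 ± 7.83 at 12 W and 94.1 ± 26.2 at 65 W (SD, n = 4 each).

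For Nd2, the 12 W libraries held 7598, 4897, 6323 and 6696 counts, and the 65 W libraries held 501, 4094, 901 and 4232. This gave levels of 57.3, 64.3, 58.4 and 62.0 at 12 W, compared with 55.2, 61.7, 55.6 and 51.5 at 65 W. The groups overlapped through 65W-2, and the other 65 W libraries lay below all 12 W libraries. The means were 60.5 ± 3.22 at 12 W and 56.0 ± 4.22 at 65 W (SD, n = 4 each).

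Nd3 gave the fewest reads, with 1926, 1127, 1658 and 1514 counts among the 12 W libraries and 111, 1109, 317 and 1100 among the 65 W libraries. Its levels were 14.5, 14.8, 15.3 and 14.01 for 12 W, compared with 12.2, 16.7, 19.6 and 13.4 for 65 W. The 12 W libraries were closely grouped, and 2 of the 65 W libraries lay above and 2 below all of them. The means were 14.7 ± 0.542 at 12 W and 15.5 ± 3.33 at 65 W (SD, n = 4 each).

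**Figure D1:**
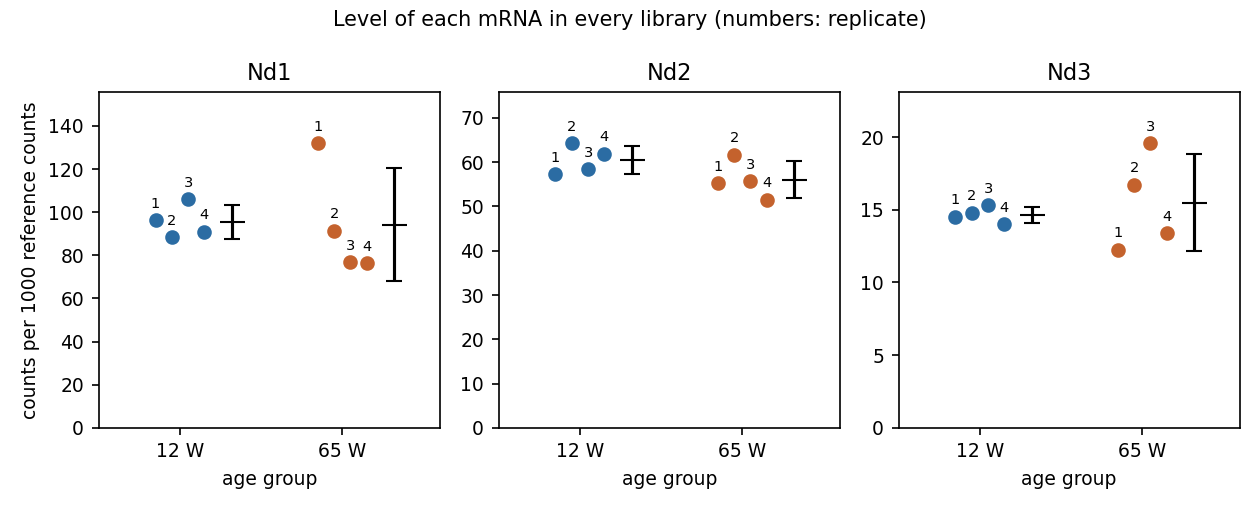
Level of Nd1, Nd2 and Nd3 (counts per 1000 reference counts, y axis from 0) in the 4 libraries of each age group (x axis); points are libraries numbered by replicate, and the bars are mean ± SD. The 12 W points lie close together in each panel, while 65W-1 is highest for Nd1 (132.0) and lowest for Nd3 (12.2), and 65W-3 is highest for Nd3 (19.6).

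The comparison of the age groups asked whether the mRNAs of these complex I subunits differ in older liver mitochondria. None of the 3 was called in the quasi-likelihood test of edgeR, which was run on the 132 transcripts with enough counts and called those below 0.05 after Benjamini-Hochberg adjustment. For Nd1 the log2 fold change, 65 W against 12 W, was -0.02 with a standard error of 0.18 and an adjusted p of 0.959 from edgeR. The log2 fold change of Nd2 was -0.11, with a standard error of 0.14 and an adjusted p of 0.920 from edgeR. That of Nd3 was 0.08, with a standard error of 0.22 and an adjusted p of 0.933 from edgeR. These fits do not show that the levels were equal. The 95% interval of the fold at 65 W ran from 0.757 to 1.28 for Nd1, from 0.750 to 1.14 for Nd2 and from 0.764 to 1.46 for Nd3.

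Across all 132 transcripts 0 were called (0%), and 10 (7.58%) were below 0.05 in edgeR before adjustment, while DESeq2 called 7. The 3 mRNAs were not among the transcripts whose groups did not overlap, which made up 4.55% of the 132. The median log2 fold change was -0.02 over the 13 mitochondria-encoded mRNAs and -0.19 over all 132 transcripts. The values of Nd1 and Nd3 depended on single 65 W libraries. Without 65W-1, the log2 fold change of Nd1 became -0.23 (edgeR, adjusted p = 0.798), and without 65W-3 or 65W-4 it was 0.06 or 0.07. Without 65W-3, that of Nd3 became -0.05 (edgeR, adjusted p = 0.946). With neither 65W-1 nor 65W-3, the values were -0.19 for Nd1, -0.10 for Nd2 and 0.04 for Nd3, again with no adjusted p under 0.05.

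The libraries of the 65 W group were spread more widely than those of the 12 W group for Nd1 and Nd3, and less so for Nd2. The coefficient of variation of the level of Nd1 was 8.21% at 12 W and 27.9% at 65 W. For Nd3 it was 3.70% and 21.5%, and for Nd2 it was 5.32% and 7.53%. Counting error alone would give 1.02% and 2.22% for Nd1, 2.58% and 5.91% for Nd3, and 1.27% and 2.99% for Nd2. All 6 values lay above that, by the least for Nd3 at 12 W (3.70% against 2.58%). A wider spread at 65 W was not particular to Nd1 and Nd3, since the coefficient of variation was higher at 65 W for each of the 13 mRNAs. It went from 7.37% to 28.2% for Cox2, from 2.18% to 13.2% for Cytb and from 26.2% to 29.6% for Cox1. Among the 13 mRNAs at 65 W, Nd2 had the lowest coefficient of variation, while Nd1 ranked 5 and Nd3 ranked 7 from the highest. Without 65W-1 the 65 W value fell to 10.5% for Nd1, whereas without 65W-3 it was 28.9%. For Nd3 it was 18.7% without 65W-1 and 16.5% without 65W-3. Nd2 rose to 9.11% and 9.19% in the same order and no longer had the lowest value of the 13, that of Nd5 being 4.09% without 65W-1 and that of Cox3 6.44% without 65W-3. With neither library, the 65 W values from the 2 left were 12.8% for Nd1, 12.7% for Nd2 and 15.6% for Nd3, so the contrast of Nd2 with Nd1 rested on these libraries. No test of the spread was made with 4 libraries per group. Both libraries named here have the fewest counts of the 8, and the part of depth in the spread was not tested.

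**Figure D2:**
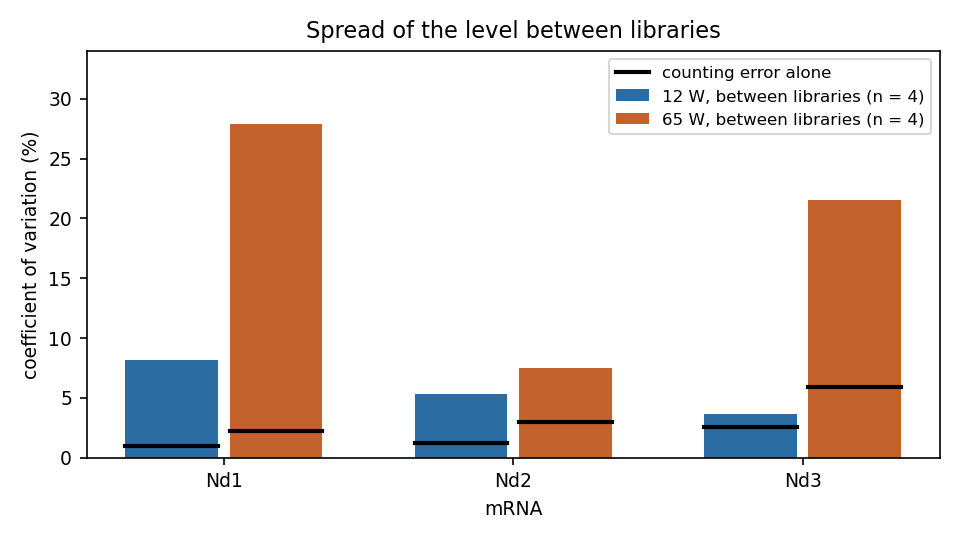
Coefficient of variation of the level (y axis, %) of Nd1, Nd2 and Nd3 (x axis) over the 4 libraries of each age group; the black lines mark what counting error alone would give. The 65 W bars of Nd1 (27.9%) and Nd3 (21.5%) are the tallest, that of Nd2 (7.53%) is closer to its 12 W bar (5.32%), and all 6 bars reach above their lines.

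The share of Nd1 was highest in 65W-1, where its interval did not overlap that of any other library. Nd1 took 12.2% of the 13 mRNA counts there (95% Wilson interval 11.6 to 12.9%), against 7.34% in 65W-3 (6.96 to 7.74%) and 9.92% in 12W-3 (9.75 to 10.1%), the next highest. The intervals cover counting error only and treat reads as independent. Reads of PCR-amplified libraries without molecular identifiers are not independent molecules, so the intervals may be too narrow. Nd3 took 1.14% in 65W-1 (0.944 to 1.37%) and 1.87% in 65W-3 (1.68 to 2.09%). Library 65W-1 was thus highest for Nd1 and lowest for Nd3, whereas 65W-3 was highest for Nd3 and, beside 65W-4, among the lowest for Nd1. Nd2 took 5.13% (4.71 to 5.58%) and 5.32% (4.99 to 5.66%), with overlapping intervals.

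Nd1, Nd2 and Nd3 together took 14.8, 15.2, 16.8 and 15.2% of the counts on the 13 mRNAs in the 12 W libraries. In the 65 W libraries the summed share was 18.5, 15.9, 14.5 and 13.6%. The means of 15.5% ± 0.880 and 15.6% ± 2.15 (SD, n = 4 each) differed by 0.110 percentage points, less than the spread between libraries (two-sided exact permutation test, p = 0.914; with 4 libraries a side such a test cannot go below 0.0286).

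Levels of different mRNAs were compared per kilobase of annotated transcript, on the scale of counts per 1000 reference counts. Over all 8 libraries the level per kilobase was 99.0 ± 18.7 for Nd1, 56.1 ± 4.06 for Nd2 and 43.3 ± 6.47 for Nd3 (SD, n = 8). The order of these 3 levels was the order of the genes along the map. Per kilobase, Nd1 was 1.74 times as abundant as Nd2 (geometric mean over the libraries) and higher in 8 of 8 libraries. Nd1 was 2.27 times as abundant as Nd3, again in 8 of 8. Both differences had p = 0.0078 in a two-sided exact permutation test by sign flips, the smallest that 8 libraries allow, and an adjusted p = 0.0094 over the 78 pairs of the 13 mRNAs. Nd2 was 1.30 times as abundant as Nd3, in 7 of 8 libraries (p = 0.016, adjusted p = 0.018, same exact test). The exception was 65W-3. In all, 94.9% of the 78 pairs passed this threshold, so a difference between 2 of these mRNAs was the rule. Within 1 age group of 4 libraries the smallest p such a test allows is 0.125, and no p is given there. The size of these differences depended on the division by length. Without it, the mean log2 ratio over the 8 libraries was 0.684 for Nd1 to Nd2, 2.643 for Nd1 to Nd3 and 1.9595 for Nd2 to Nd3. Undivided, Nd2 was also above Nd3 in 65W-3 (ratio of counts 2.84). Whether the counts of an mRNA rise with its length was not tested, so the scale that better reflects abundance is not known.

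The ratio of Nd1 to Nd2 per kilobase was 1.82, 1.49, 1.97 and 1.59 in the younger group and 2.59, 1.605, 1.498 and 1.605 in the older group. Library 65W-1 stood alone at the top, and the 3 other 65 W libraries lay within the 12 W range. The ratio of Nd1 to Nd3 was 2.41, 2.17, 2.52 and 2.36 among the 12 W libraries and 3.92, 1.99, 1.43 and 2.07 among the 65 W libraries, so none of the 65 W libraries fell inside the 12 W range. Nd2 to Nd3 gave 1.32, 1.46, 1.28 and 1.48 for the 12 W mice and 1.51, 1.24, 0.953 and 1.29 for the 65 W mice. For all 3 ratios the age groups overlapped. On the log2 scale the ratios differed between the ages (65 W minus 12 W) by 0.06 for Nd1 to Nd2 (two-sided exact permutation test, p = 0.771), by -0.11 for Nd1 to Nd3 (p = 0.686, exact) and by -0.17 for Nd2 to Nd3 (p = 0.343, exact). The adjusted p over the 78 pairs was at least 0.922 for each. Of the 78 pairs, 0% passed the threshold and 10.3% did not overlap between the groups. The reference cancels in such a ratio, and the length cancels in the difference between the ages but not in the ratio itself.

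**Figure D3:**
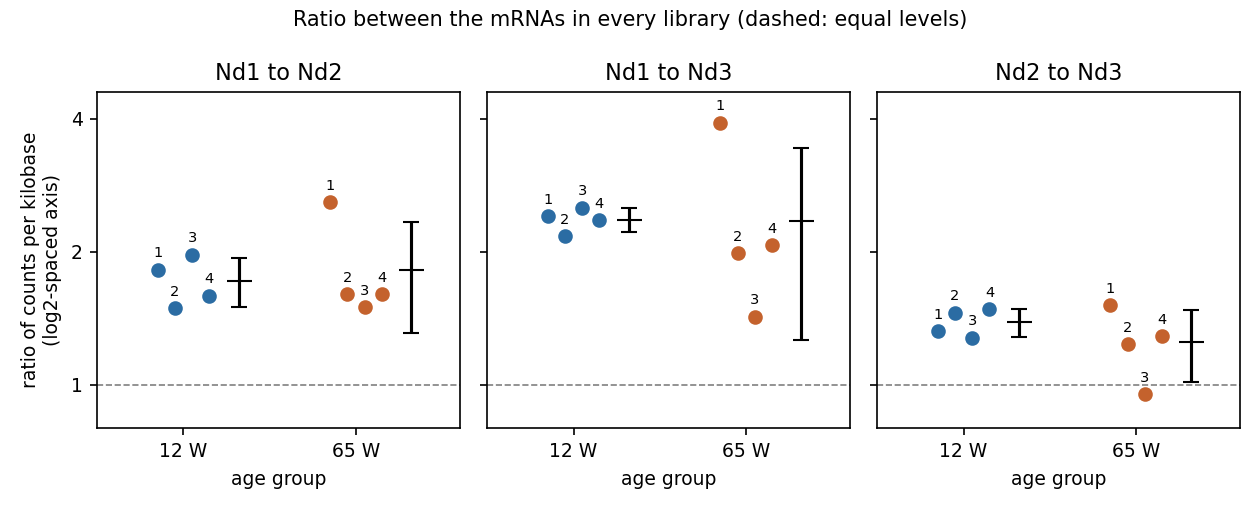
Ratio of counts per kilobase (y axis, log2-spaced) between Nd1 and Nd2, Nd1 and Nd3, and Nd2 and Nd3 in the 4 libraries of each age group (x axis); numbers are replicates, bars are mean ± SD, and the dashed line marks equal levels. All ratios except that of Nd2 to Nd3 in 65W-3 (0.953) lie above 1, and 65W-1 lies highest among the 65 W libraries in each panel.

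Set among all 13 mRNAs, Nd1 ranked 5 from the top by mean level per kilobase, Nd2 ranked 8 and Nd3 ranked 10. Nd1 stood between Cytb, of complex III, and Atp6, of the ATP synthase. It was lower than Cytb in 7 of 8 libraries (log2 ratio -0.25 ± 0.257, SD, n = 8, adjusted exact p = 0.034). It could not be told apart from the row of Atp6 (0.16 ± 0.475, adjusted exact p = 0.419). Atp6 shares its mRNA with Atp8, whose own row ranked 1 per kilobase, so this does not place Nd1 against the shared mRNA. Nd2 stood between Cox2 and Cox1, both of complex IV. It was lower than Cox2 in 8 of 8 libraries (-0.41 ± 0.238, adjusted exact p = 0.0094), and over all 8 did not differ from Cox1 beyond the spread (0.23 ± 0.514, adjusted exact p = 0.252). By age, Nd2 was above Cox1 in 1 of 4 libraries at 12 W (mean log2 ratio -0.12) and in 4 of 4 at 65 W (0.57). Nd3 stood between Cox1, from which it did not differ beyond the spread (-0.16 ± 0.662, adjusted exact p = 0.508), and Nd6, the complex I mRNA of the other strand. Cox1 was above Nd3 in 4 of 4 libraries at 12 W (mean log2 ratio of Cox1 to Nd3 0.58) and in 1 of 4 at 65 W (-0.27). The age differences of both ratios with Cox1 did not pass the threshold (exact permutation p = 0.057, adjusted p = 0.262 for each). Nd3 had more poly(dT)-primed counts per kilobase than Nd6 in 8 of 8 libraries (1.05 ± 0.355, adjusted exact p = 0.0094). Nd6 held no stretch of A longer than 3, and how well poly(dT) primed each mRNA was not tested. All these placements are per kilobase. By mean level over the 8 libraries without division by length, Nd1 ranked 5, Nd2 ranked 8 and Nd3 ranked 11. There Nd2 (58.3) lay above Cox2 (51.7), and Cox1 (79.1) lay above both Nd2 and Nd3 (15.1).

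The fall from Nd1 to Nd3 was not shared by the mRNAs between and behind them. Over the 12 mRNAs that are read in the same direction, Spearman's rho of the mean level per kilobase against the start position was -0.070. In the single libraries it lay between -0.15 and 0. Without division by length rho was 0.063 for the mean level and lay between -0.056 and 0.084 in the single libraries. This is a description across 12 genes, in which Atp8 with Atp6 and Nd4l with Nd4 are each carried on a shared mRNA, and genes are not independent replicates. Nd4, which with Nd4l is on the next mRNA after Nd3 on the map, had 258.1 ± 20.7 counts per 1000 reference counts per kilobase (SD, n = 8). Nd5, behind Nd4, had 8.81 ± 0.905. The order by map position among Nd1, Nd2 and Nd3 therefore did not extend to the other mRNAs.

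**Figure D4:**
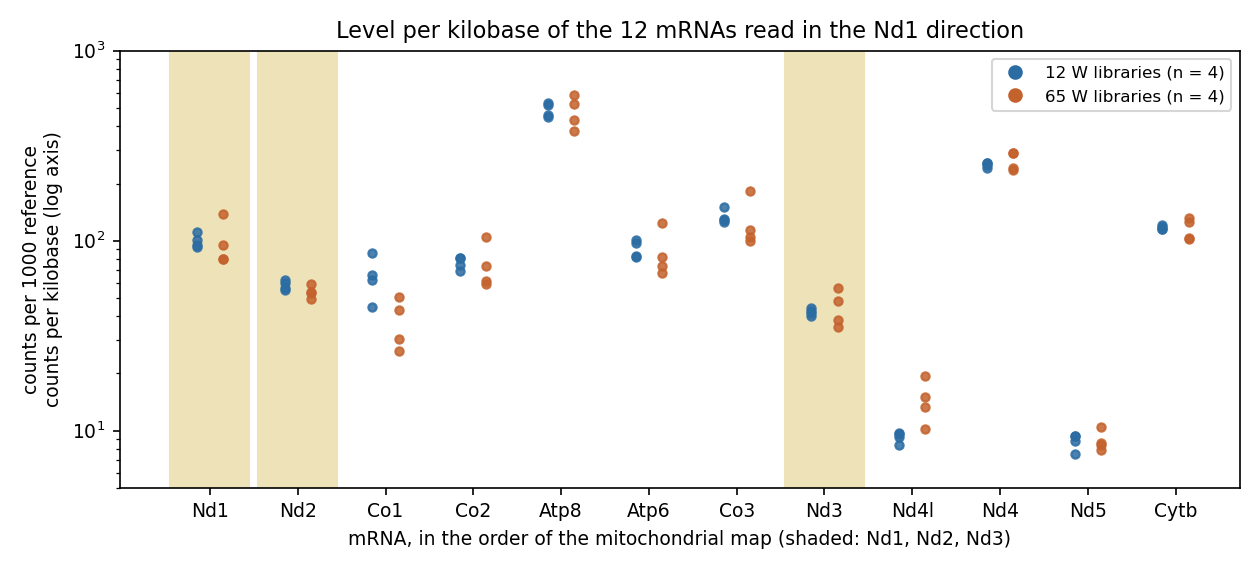
Level per kilobase (counts per 1000 reference counts per kilobase, log y axis) of the 12 mRNAs read in the direction of Nd1, placed in map order (x axis), with a point per library in blue (12 W) or orange (65 W) and Nd1, Nd2 and Nd3 shaded. The shaded genes step down from 99.0 to 43.3 on average, while genes between and after them lie both above and below.

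The level of Nd3 rests on how reads were divided between it and a nuclear copy. Gm28438, a copy of Nd3 on the minus strand of chromosome 1 from 24612775 to 24613119, matches it along 345 bases with a single substitution, T3C, where Nd3 has the first base named and positions count from 1 at the start of Nd3. The annotated copy stops 3 bases before the end of Nd3. The first 30 bases of Nd3 (chrM:9459-9488) and of Gm28438 (chr1:24613090-24613119) are shown with the differing base in capitals.
Nd3: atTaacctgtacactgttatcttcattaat
Gm28438: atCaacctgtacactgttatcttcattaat
Beyond this base the annotated sequences give nothing that separates a read of the copy from a read of Nd3, apart from the stop codon. The row of Gm28438 held 1358, 663, 1130 and 909 counts at 12 W, and 63, 807, 142 and 723 counts at 65 W.

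Of the summed counts of Nd3 and Gm28438, the copy took 41.4, 37.0, 40.5 and 37.5% at 12 W, against 36.2, 42.1, 30.9 and 39.7% at 65 W. The lowest share was that of 65W-3 (95% Wilson interval 26.9 to 35.3%), an interval that overlapped that of 12W-2 (34.8 to 39.3%) and of no other 12 W library. The means were 39.1% ± 2.15 at 12 W and 37.2% ± 4.85 at 65 W (SD, n = 4 each), a difference of -1.88 percentage points (two-sided exact permutation test, p = 0.514). Tested as a row of its own, Gm28438 gave a log2 value of -0.04 (standard error 0.25; edgeR, adjusted p = 0.953). With the reads of the copy added, the value of Nd3 was 0.03 (edgeR, adjusted p = 0.950).

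Adding the copy changed the order of the levels per kilobase, but not the comparison of the ages. Nd3 with Gm28438 reached 71.2, 67.5, 74.0 and 64.4 counts per 1000 reference counts per kilobase in the younger group, compared with 55.1, 83.0, 81.5 and 63.8 in the older group. This sum was above Nd2 in 8 of 8 libraries, whereas Nd3 alone was above Nd2 in 1 of 8. The log2 ratio of Nd2 to Nd3 went from 0.38 to -0.31 (adjusted p = 0.0097 in the exact test by sign flips). Whether Nd3 or Nd2 is the more abundant per kilobase therefore depended on this assignment of reads. Without division by length, adding the copy did not change the order. There the mean levels at 12 W and 65 W were 14.7 and 15.5 for Nd3 and 9.45 and 9.17 for Gm28438. Those of Nd2 were 60.5 and 56.0. Per kilobase, Nd1 stayed above Nd2 in every library. It was above the sum of Nd3 and its copy in all but 65W-3, where Nd1 stood at 80.3 and the sum at 81.5. The log2 ratio of Nd1 to Nd3 went from 1.184 to 0.49 with the copy added (adjusted p = 0.018 in the same exact test).

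**Figure D5:**
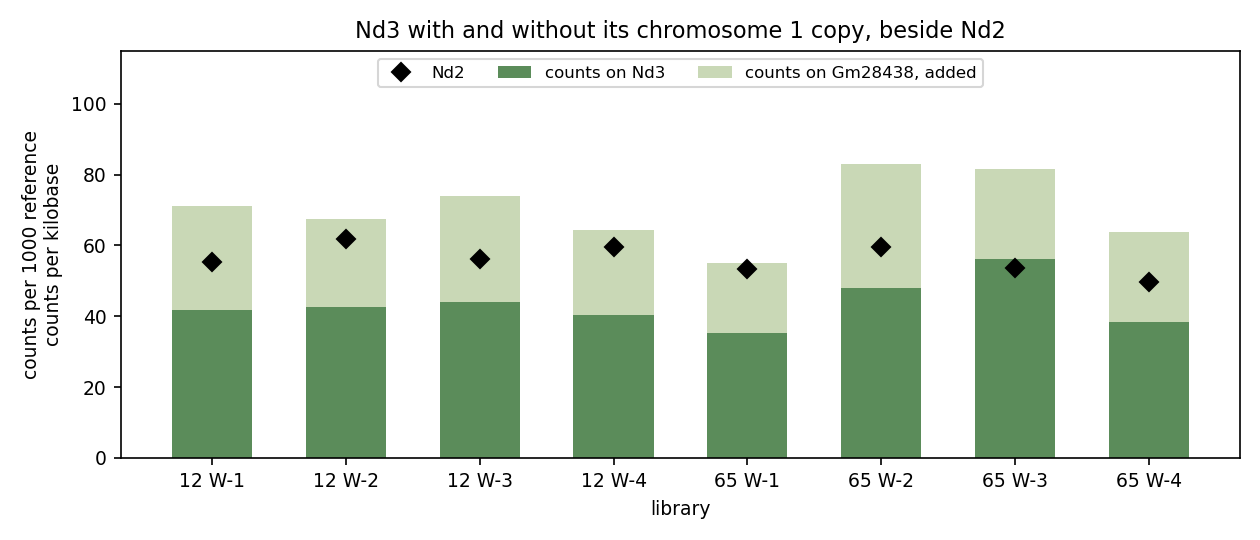
Counts per 1000 reference counts per kilobase (y axis) in the 8 libraries (x axis), with Nd3 as the dark part of each bar, the reads of its copy Gm28438 added as the light part, and Nd2 as diamonds. The dark bars reach above the diamond only in 65W-3, while the whole bars do so in all 8 libraries.

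For Nd1 no nuclear transcript in the table reached 80% identity over 100 bases, and Nd2 had copies with few reads. Gm13339, a copy on chromosome 2 from 22590024 to 22590533, differs from the end of Nd2 at 17 of 510 bases and had 0 to 20 counts per library. It took at most 0.315% of the summed counts with Nd2. Gm48122 on chromosome 12 had 1 count in all. The counts of Nd1 and Nd2 were thus hardly touched by such rows.

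The other complex I genes were examined next to these 3 mRNAs. Nd4, Nd4l, Nd5 and Nd6 encode the remaining mitochondrial subunits, and 0 of these 4 rose and 0 fell past the threshold in edgeR. Their log2 fold changes ran from -0.09 for Nd6 to 0.64 for Nd4l (edgeR, adjusted p = 0.609), the only one of the 4 whose groups did not overlap, with a median of 0.04. Of the counts on the 7 complex I mRNAs, Nd1, Nd2 and Nd3 took between 24.8% in 65W-4 and 34.9% in 65W-1. The nuclear genes of complex I and of mitochondrial RNA processing had too few counts for a test. Of 37 genes for nuclear complex I subunits, 35 had a row, with 242 counts at 12 W and 93 at 65 W in all, and Ndufa6, the highest, had 30 counts over the 8 libraries. Of 16 complex I assembly factors, 10 had a row, with 10 counts at 12 W and 4 at 65 W. Of 25 genes for transcription and processing of mitochondrial RNA, 8 were found by symbol, with 15 counts at 12 W and 4 at 65 W, among them Slirp, which binds mitochondrial mRNAs, with 5 counts in all. No transcript of these nuclear lists had enough counts to be tested.

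How Nd1, Nd2 and Nd3 varied with each other depended on the shallow libraries. Pearson's r of the log2 levels was -0.54 between Nd1 and Nd3 (Spearman's rho -0.19), 0.08 between Nd1 and Nd2 (0.05) and 0.19 between Nd2 and Nd3 (0.36), as descriptions over 8 libraries that share a reference. Without 65W-1 and 65W-3 the values were 0.54, 0.43 and 0.55 in the same order, all positive, over 6 libraries. Among the other 131 transcripts, the 3 most like Nd1 were Proc, the anticoagulant protein C (r = 0.75), Scd1, a fatty acid desaturase (0.72), and Nd6 (0.71). Those most like Nd2 were Gm29216, which matches part of Cox1 in the nuclear genome (0.81), Gm28439, which likewise matches part of Nd4 (0.70), and Cox1 (0.61). Those most like Nd3 were Ahsg, a plasma protein made by hepatocytes (0.90), Cox2 (0.83) and Timm22, part of a mitochondrial import complex (0.77). As the highest of 131 for each mRNA over 8 libraries, these r values were selected to be high, and no p is given. The nuclear genes Proc and Ahsg had 0 to 22 and 0 to 27 counts in a library, Timm22 1 to 57 and Scd1 3 to 75. Gm29216 had 0 to 2254, with 0 in both 65W-1 and 65W-4, and Gm28439 had 5 to 64. Several of the r values also depended on 65W-1 and 65W-3. Without both, r was 0.28 for Proc and 0.40 for Nd6 with Nd1, and 0.38 for Cox2 and -0.51 for Timm22 with Nd3. The others lay between 0.61 and 0.92.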

How the data were processed

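The authors sequenced 8 barcoded PCR-cDNA libraries on a MinION and counted reads per Ensembl transcript with a workflow of Epi2Me Labs. The deposited values are counts, not normalized. The submitters' processing notes name minimap2, SAMtools, edgeR and GRCm38; the counting tool and annotation release are not given in the sources used here. Of 8688 rows, 8591 matched GENCODE on GRCm38, and the 97 others held 0.0946% of the counts. No row for a mitochondrial rRNA or tRNA was used, so Rnr2 could not serve as the reference.

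Here the library size was replaced by a reference, the sum over the 12 mitochondrial mRNAs left when Cox1 is set aside. edgeR 4.0.16 (R 4.3.3, filterByExpr, quasi-likelihood test, Benjamini-Hochberg over 132 transcripts, threshold 0.05) compared 65 W with 12 W. Ratios used a pseudocount of 0.5 and two-sided exact permutation tests, which were checked against scipy 1.17.1. Nuclear copies were found with BLAST+ 2.17.0 (at least 80% identity over 100 bases). DESeq2 1.42.0, other library sizes and filters, copies added, and libraries left out were the alternatives. Total counts were 12630 to 191092 per library. The scripts were tested on simulated data.

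The mRNAs, lists and tests were chosen with earlier results of these data known. Named are the 3 mRNAs, their neighbours in level, their copies, the 3 transcripts most like each, and up to 3 rows of each list. The copy Gm28438 was examined as a share after its counts were seen. Same-numbered libraries deviated together only in part and were not treated as pairs. No pair of libraries within a group agreed within sampling noise.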

Additional observations from a re-analysis of the deposited data

Results flagged for a closer look

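The ratio of Nd1 to Nd2 in 65W-1 was the only value among 16 groups of 4 libraries that lay far from the rest of its group relative to the group's range. Chance flags about 1 group in 20, so 1 flag among 16 groups is near what chance alone gives. The log2 ratio of Nd1 to Nd2 per kilobase in 65W-1 was 1.37, against 0.58 to 0.68 in the other 65 W libraries and 0.58 to 0.98 at 12 W. Library 65W-1 had the fewest counts in all (12630), with 1197 on Nd1 and 501 on Nd2. The part of depth in this value was not tested.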

How the results depend on the processing

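No p of Nd1, Nd2 or Nd3 fell below 0.05 under any of the 21 alternatives run for each, and Nd2 kept its sign in all of them. Nd1, at -0.02, changed sign with TMM (0.0190), RLE (0.0520), all counts (0.0401) or all 13 mRNAs (0.0299) as library size and with DESeq2 (0.0518), values within its standard error. With a library left out, Nd1 lay between -0.23 and 0.0676, Nd2 between -0.16 and -0.07, and Nd3 between -0.0527 and 0.17. The levels of Nd1 above Nd2 and above Nd3 kept their calls under all 12 alternatives; with a library left out, the log2 ratios were 0.72 to 0.83 for Nd1 to Nd2, 1.07 to 1.28 for Nd1 to Nd3 and 0.35 to 0.45 for Nd2 to Nd3. The last turned to -0.31 with the nuclear copies added, which follows from the reads of Gm28438. Without division by length all 3 kept their order, but Nd2 and Cox2 changed places by mean level.

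The age difference of the Nd1 to Nd2 ratio (0.06) was -0.0897 when the 2 libraries below 50000 counts were dropped, and -0.12 to 0.14 with a library left out. That of Nd1 to Nd3 (-0.11) was -0.39 to 0.10, and that of Nd2 to Nd3 (-0.17) was -0.27 to -0.04. The summed share (0.110 percentage points) was -0.495 over the 12 mRNAs other than Cox1, -0.781 without both shallow libraries and -0.851 to 0.799 with a library left out. The share of Gm28438 (-1.88), chosen after seeing the data, was 1.78 without both shallow libraries and -3.51 to 0.219 with a library left out. For the ratios no adjusted p, and for the shares no exact p, fell below 0.05. Without 65W-1 the Nd1 to Nd3 difference was -0.39 (exact permutation test, adjusted p = 0.223), and the remaining 65 W libraries all lay below the 12 W range. The cause of the changes was not tested.

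The 0 transcripts called became 2 with TMM, 3 with RLE, 2 over the 13 mRNAs only, 6 without a filter, 7 with DESeq2, and 0 to 3 with a library left out (2 without 65W-3, 3 without 65W-4). Libraries with the same replicate number were not treated as pairs: the correlations of their deviations were -0.08, 0.26, -0.34 and 0.17 over the 132 transcripts and 0.70, 0.35, 0.05 and -0.23 over the 13 mRNAs, and 3 of 8 libraries correlated best with their own number. The replicate block gave 3 calls, and -0.05, -0.11 and 0.06 for Nd1, Nd2 and Nd3, with no change of call. Depth limits 65W-1 most, with 111 counts on Nd3.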
